A study of Mus musculus with 4 samples.

Results

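The array of epididymal white fat from mice given CL 316243 for 3 days was set against the array of mice given it for 1 day, without use of the control array in the ratio, so that the comparison shows what changed within the treatment between those days. These are 2 of the 4 arrays of a time course in which RNA was pooled from male C57 BL6 mice, 3 to 4 months old, that received CL 316243 at 3 nmol/hr for 1, 3 or 6 days, beside an array of control mice. Each group is 1 array of pooled RNA. The sources used here do not give how many mice went into a pool, how the compound was given or what the control mice received. The titles of the day 1 and day 3 arrays write the compound as 316234 and their descriptions as 316243. All 12422 probe sets against transcripts entered, of 12488 on the array; 10833 of them carry 1 gene symbol and stand for 8251 genes. With 1 array on each side there is no replicate check, no test was run and no p-value is given.

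CL 316243 is an agonist selective for the β3-adrenergic receptor, which in rodents sits mainly on fat cells and acts through cAMP and protein kinase A. Activation of protein kinase A sets off lipolysis, the release of stored triglyceride as fatty acids and glycerol. In rodent white fat, sustained stimulation is known to bring an early inflammatory phase with entry of leukocytes, and later a remodelling in which fat cells gain mitochondria and some features of brown fat cells.

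The values are array intensities, on a linear scale, as deposited. Values under 173, the 40th percentile of the 4 arrays, were raised to that floor before a ratio was taken, and a probe set or gene was counted as higher or lower at day 3 when the ratio was at least 2-fold. Where the dimmer value lies at the floor, the fold is a lower bound and is written with the words at least. Of the probe sets, 60.05% lay above the floor at day 3 and 60.08% at day 1, and the array medians were 314.5 at day 3 and 314 at day 1. Where a gene had 2 probe sets of sufficient brightness, their log2 ratios differed with an error of 0.32 per probe set over 343 genes, so 3 errors come to 1.96-fold. That error holds no variation between mice or pools.

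Relative to day 1, 452 probe sets rose at least 2-fold, which is 3.64% of those compared, and 513, or 4.13%, fell at least 2-fold, 965 in all (7.77%). Between day 6 and day 3, a comparison that shares the day 3 array, 359 probe sets (2.89%) were at least 2-fold apart in either direction. By gene, 364 of 8251 (4.41%) rose and 399 (4.84%) fell, and the median log2 ratio of all genes was 0.00. List counts below are to be read beside these shares. They are also to be read beside the brighter probe sets: of those averaging over 2 times the floor, between 11.9% and 15.5% passed 2-fold in either direction. The falls reached further than the rises. At 16-fold or more, 13 genes were lower at day 3 and 1, Thrsp, was higher; at 4-fold or more, 84 were lower and 43 higher. The scatter of the 2 arrays shows the same asymmetry, with a group of genes far below the diagonal that were bright at day 1 and near the floor at day 3.

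**Figure D1:**
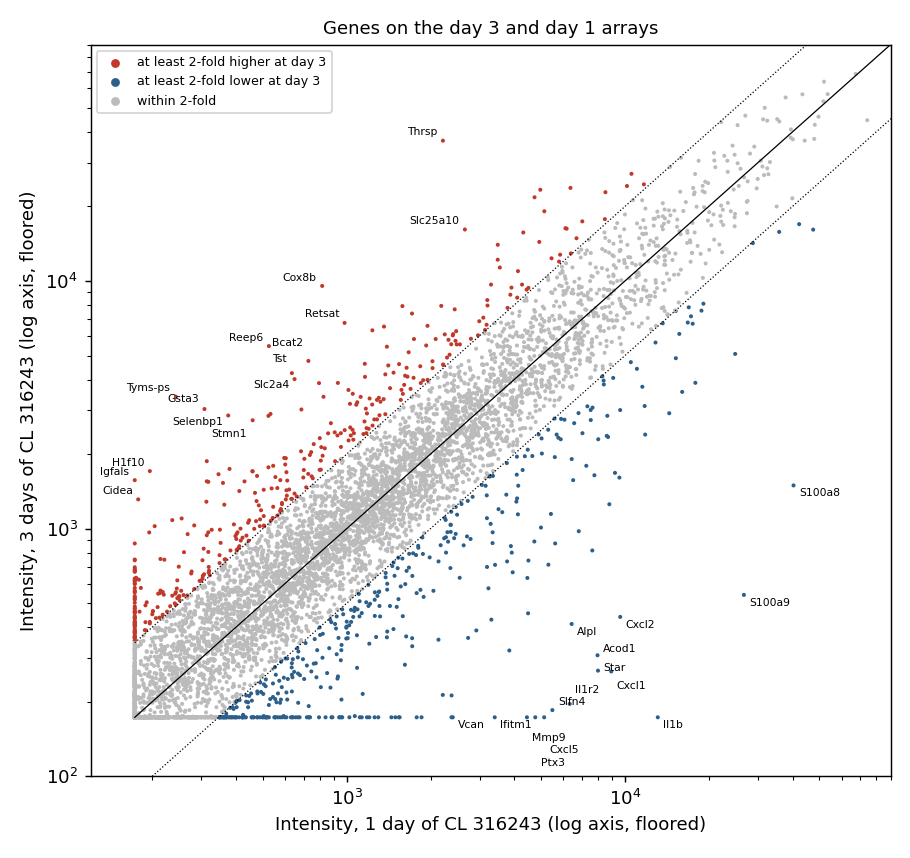
Each point is a gene, with its intensity at day 3 on the vertical axis and at day 1 on the horizontal axis, both logarithmic and raised to the floor of 173; the solid line marks equal values and the dotted lines 2-fold. The 15 largest rises and the 15 largest falls are labelled: Thrsp is the rise farthest from the diagonal, while S100a8 and S100a9 fell from the bright end of day 1 and Il1b lies on the floor at day 3.

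The genes that fell farthest include secreted proteins of acute inflammation. Il1b, the pyrogenic cytokine interleukin-1β, had an intensity of 121 at day 3, under the floor, and 13120 at day 1, so it was at least 75.8-fold lower. S100a9, a subunit of the calcium-binding alarmin calprotectin abundant in neutrophils, stood at 540 at day 3 and 26751 at day 1, a 49.5-fold fall. Its partner S100a8 stood at 1494 at day 3 and 40341 at day 1, a 27.0-fold fall from one of the brighter signals of the day 1 array. On the arrays outside the ratio, S100a8 had 414 in control and 643 at day 6, Il1b 36 in control and 8 at day 6, and S100a9 119 in control and 13 at day 6, so all 3 were high on the day 1 array alone and S100a8 and S100a9 had not reached control levels at day 3. No other S100 gene passed 2-fold: of 8 measured members of that list, 0 rose and 2 fell, and the median log2 ratio was -0.08.

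Further interleukin-1 genes fell with the ligand. Il1r2, the decoy receptor that binds interleukin-1 without signalling, was at 196 at day 3 and 6327 at day 1, 32.3-fold lower, and its other probe set was at 308 at day 3 and 4804 at day 1. Il1rn, the secreted antagonist of the receptor, was at 1607 at day 3 and 9548 at day 1, 5.94-fold lower; it was at 113 in control and 119 at day 6. Il1r1, the signalling receptor, was at 930 at day 3 and 2705 at day 1, 2.91-fold lower. The ligand, its decoy, its antagonist and its receptor were thus all lower at day 3, with the antagonist still well above its control and day 6 values. Of 12 measured interleukin-1 genes, 4 fell and 1 rose, Casp1, the protease that cleaves pro-interleukin-1β, which was named after its values were seen (562 at day 3 and 214 at day 1).

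Chemokines that draw neutrophils fell to or near the floor. Cxcl1, a ligand of the receptor CXCR2, was at 265 at day 3 and 8926 at day 1, 33.7-fold lower, and its other probe set was at 79 at day 3 and 6469 at day 1. Cxcl2, a second CXCR2 ligand, was at 440 at day 3 and 9613 at day 1, 21.8-fold lower. Cxcl5, which binds the same receptor, was at 60 at day 3 and 5123 at day 1, at least 29.6-fold lower. The receptor gene Cxcr2 itself was at 59 at day 3 and 1495 at day 1, at least 8.64-fold lower. Control values of these 4 genes lay between 19 and 124, so the day 1 array was the one that stood apart. Of 14 measured CXC genes, 7 fell and 1 rose, with a median log2 ratio of -0.74; 4 fell when the floor was set at the 60th percentile. The 1 rise was Cxcl9, an interferon-induced T cell chemokine named after its values were seen, at 672 at day 3 and 132 at day 1.

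The promoters of Cxcl1 and Cxcl2 are shown because both genes fell from bright signals at day 1 and share a match to the consensus sequence of the transcription factor NF-kB, which induces many inflammatory genes. The 250 bases before each RefSeq start follow, 5′ to 3′ on the coding strand (GRCm38.p6, chr5:90890995-90891244 and chr5:90903649-90903898, both plus strand), with the match in capitals. It begins at base -71 in Cxcl1 and at base -97 in Cxcl2, counted back from -1 just before the start.
Cxcl1: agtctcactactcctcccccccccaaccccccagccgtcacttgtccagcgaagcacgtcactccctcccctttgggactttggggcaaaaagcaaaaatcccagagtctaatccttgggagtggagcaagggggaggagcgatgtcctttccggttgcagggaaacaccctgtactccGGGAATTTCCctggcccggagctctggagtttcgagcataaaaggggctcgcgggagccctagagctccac
Cxcl2: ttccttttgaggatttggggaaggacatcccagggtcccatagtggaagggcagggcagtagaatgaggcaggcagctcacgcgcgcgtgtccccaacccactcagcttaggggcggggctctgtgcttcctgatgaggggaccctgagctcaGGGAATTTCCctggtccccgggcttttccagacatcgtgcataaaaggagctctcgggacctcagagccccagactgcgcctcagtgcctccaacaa
A match on either strand was present in 4.78% of 27025 RefSeq promoters of this length. Of the measured CXC genes, 12 of 14 had a promoter in the table and 3 held a match (Cxcl1, Cxcl10 and Cxcl2); among those past 2-fold, 2 of 6 held it. Among CC chemokine genes 3 of 14 with a promoter held it, and 0 of 3 of those past 2-fold. In the tumour necrosis factor, Toll-like receptor and NF-kB list 4 of 20 held it, and 3 of 8 of those past 2-fold. A match of letters describes the sequence and does not show that the factor binds there.

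CC chemokines, which act mainly on monocytes and other mononuclear cells, fell as well, some of them less far. Ccl4 was at -10 at day 3 and 1857 at day 1, at least 10.7-fold lower, and Ccl3, its close relative, was at 455 at day 3 and 4484 at day 1, 9.85-fold lower. Ccl7, a monocyte chemoattractant, was at 743 at day 3 and 4496 at day 1, 6.05-fold lower, and Ccr1, a receptor for Ccl3, was at 887 at day 3 and 4723 at day 1, 5.32-fold lower. Ccl7 and Ccr1 remained brighter at day 3 than in control (329 and 215) or at day 6 (83 and 156). The median of 20 measured CC genes was -0.30, and 6 fell and 0 rose.

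Cytokines and feedback genes of the interleukin-6 pathway, which signals through JAK kinases and STAT3, formed the next group. Il6 was at 16 at day 3 and 2379 at day 1, at least 13.8-fold lower. Socs3, the inhibitor that STAT3 induces to shut off its own receptor, was at 388 at day 3 and 2922 at day 1, 7.53-fold lower, and its other probe set at 189 at day 3 and 3310 at day 1. Osmr, the receptor chain for oncostatin M, was at 666 at day 3 and 3948 at day 1, 5.93-fold lower, and Il4ra, the shared receptor chain for interleukins 4 and 13, was at 976 at day 3 and 6821 at day 1, 6.99-fold lower. Of 28 measured genes of the list, 10 fell and 0 rose, and the median was -0.65 (5 fell when the floor was set at the 60th percentile).

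Genes of tumour necrosis factor, Toll-like receptor and NF-kB signalling also fell in part. Selp, the adhesion molecule P-selectin, was at 66 at day 3 and 1205 at day 1, at least 6.97-fold lower. Nfkbia, the NF-kB inhibitor that NF-kB itself induces, was at 1642 at day 3 and 7762 at day 1, 4.73-fold lower, and its other probe set was at 1632 at day 3 and 6040 at day 1. Cd14, the endotoxin coreceptor of myeloid cells, was at 3879 at day 3 and 17902 at day 1, 4.62-fold lower. Tnfaip6, a secreted hyaluronan-binding protein, was at 81 at day 3 and 839 at day 1, at least 4.85-fold lower. The median of 25 measured genes was -0.72, and 10 fell and 0 rose.

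The pathway list with the lowest median was that of immediate early genes, transcription factors and feedback genes switched on within minutes of a stimulus: its median was -0.95, and 15 of 31 measured genes fell and 1 rose. Fosl1, an AP-1 subunit, was at -28 at day 3 and 1540 at day 1, at least 8.90-fold lower. Junb, another AP-1 subunit, was at 632 at day 3 and 4458 at day 1, 7.05-fold lower, and Ier3, an early survival gene, was at 1254 at day 3 and 8785 at day 1, 7.01-fold lower. Gadd45b, a stress-induced regulator of MAP kinases, was at 356 at day 3 and 2136 at day 1, 6.00-fold lower. Junb, Fosl1 and Gadd45b had control values of 302, -21 and 127, and Ier3 975, so their day 3 values lay nearer to control than to day 1. The 1 rise was the MAP kinase phosphatase gene Dusp2, named after its values were seen, at 819 at day 3 and 402 at day 1.

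Some acute phase proteins and metallothioneins fell, less far and from very bright levels. Ptx3, a soluble pattern recognition protein, was the exception, at 148 at day 3 and 4759 at day 1, at least 27.5-fold lower. Mt2, a zinc-binding metallothionein, was at 16118 at day 3 and 47461 at day 1, 2.94-fold lower, and Saa3, the serum amyloid A made by inflamed fat, was at 8095 at day 3 and 19136 at day 1, 2.36-fold lower. Mt2 was thus near its control value of 15377, while Saa3 remained above its control value of 889. Orm1, the acute phase protein orosomucoid, went the other way, at 6590 at day 3 and 1951 at day 1, 3.38-fold higher, close to its 5977 in control. Lcn2, an iron-trafficking lipocalin, was at 4418 at day 3 and 11038 at day 1, 2.50-fold lower, although its dimmer probe set was at 368 at day 3 and 273 at day 1. Of 16 measured genes 5 fell and 1 rose, with a median log2 ratio of -0.12.

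Further genes of the day 1 response were among the 15 largest falls. Acod1, the enzyme with which activated macrophages make itaconate, was at 308 at day 3 and 7966 at day 1, 25.9-fold lower, and its other probe set at 29 at day 3 and 1006 at day 1. Slfn4, a Schlafen gene of myeloid cells, was at 185 at day 3 and 5483 at day 1, 29.6-fold lower. Ifitm1, an interferon-induced membrane protein, was at 119 at day 3 and 3403 at day 1, at least 19.7-fold lower, yet the 36 measured interferon-induced genes had a median of 0.00, with 3 lower and 2 higher. Alpl, tissue-nonspecific alkaline phosphatase, was at 412 at day 3 and 6430 at day 1, 15.6-fold lower. Vcan, the matrix proteoglycan versican, was at 152 at day 3 and 2405 at day 1, at least 13.9-fold lower.

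Star, which delivers cholesterol to the inner mitochondrial membrane so that steroids can be made, was at 267 at day 3 and 7998 at day 1, 30.0-fold lower, and its other probe set was at 365 at day 3 and 1399 at day 1. It was at 18 in control and -30 at day 6. The steroidogenic enzyme genes Cyp11a1 (6 at day 3 and 72 at day 1) and Cyp17a1 (35 at day 3 and 99 at day 1), named after their values were seen, lay below the floor on both arrays. Among 20 measured markers of testis and germ cells, Star was the 1 that passed 2-fold.

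Markers of neutrophils moved with these groups. Of 17 measured neutrophil markers, 10 fell and 1 rose, with a median log2 ratio of -1.62, and their summed intensity was 10675 at day 3 and 98478 at day 1, beside 8617 in control and 5290 at day 6. S100a8 and S100a9 alone gave 40341 and 26751 of the day 1 sum, and S100a8, S100a9, Il1r2, Cxcr2 and Lcn2, described above with other lists, are among the 10 that fell, so the marker list and those groups overlap. Mmp9, the gelatinase stored in neutrophil granules, was at 155 at day 3 and 4442 at day 1, at least 25.7-fold lower; its dimmer probe set was at 63 at day 3 and 222 at day 1. Mmp8, neutrophil collagenase, was at -66 at day 3 and 677 at day 1, at least 3.91-fold lower. The primary and secondary granule genes Mpo (85 at day 3 and 164 at day 1), Ltf (0 at day 3 and 50 at day 1) and Ngp (16 at day 3 and 91 at day 1), which are transcribed in bone marrow precursors and were named after their values were seen, lay below the floor on both arrays, and Camp, another such gene, was the 1 rise (546 at day 3 and 242 at day 1). The part of neutrophil RNA in the falls of the S100, interleukin-1 and chemokine genes was not tested. In tissue RNA, fewer cells of a type and less RNA per cell cannot be told apart, here and throughout.

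**Figure D2:**
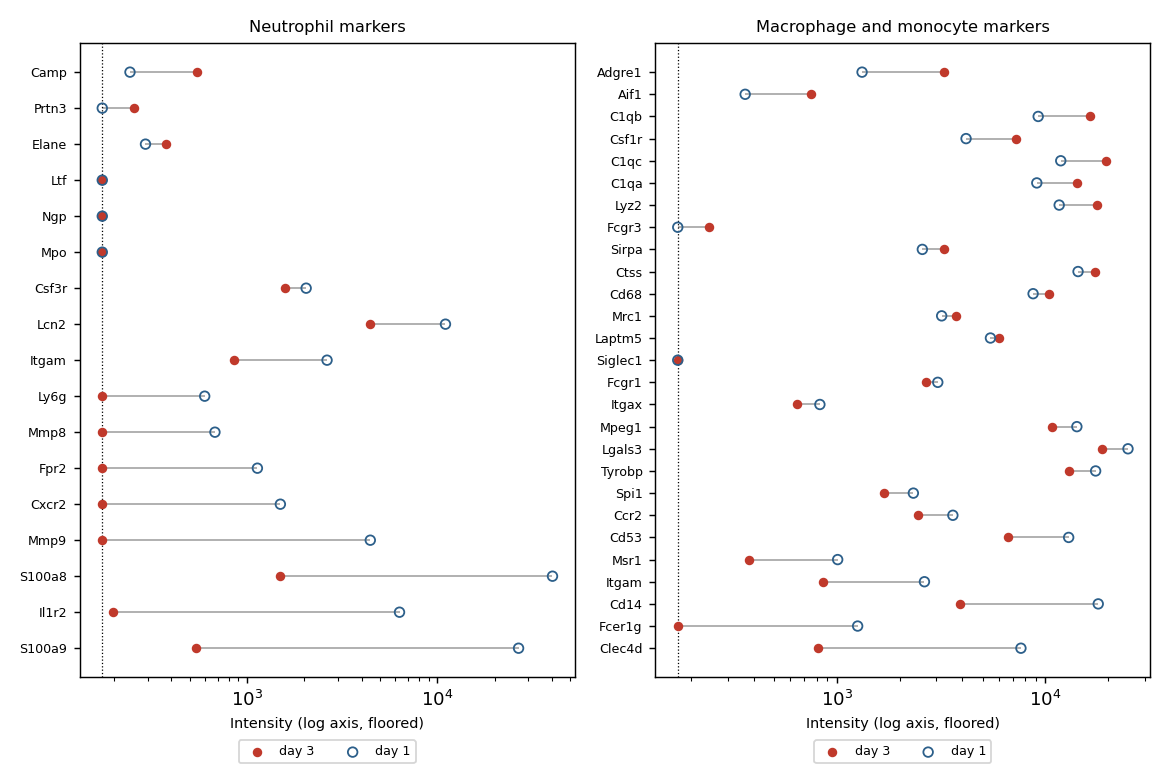
Intensities at day 3 (filled) and day 1 (open) of the measured neutrophil markers, left, and macrophage and monocyte markers, right, on a logarithmic axis with the floor of 173 as a dotted line. Of 17 neutrophil markers 10 fell at least 2-fold, whereas the 27 macrophage markers lie on both sides, with 2 higher and 5 lower.

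Macrophage markers lay on both sides. Their summed intensity was 182381 at day 3 and 191623 at day 1, and 79321 in control, and their median log2 ratio was 0.00, with 2 of 27 higher and 5 lower. Adgre1, which encodes a surface receptor that defines mouse macrophages, was at 3253 at day 3 and 1322 at day 1, 2.46-fold higher, and Cd68, a lysosomal macrophage protein, was at 10436 at day 3 and 8726 at day 1, a log2 ratio of 0.26. Clec4d, a C-type lectin of inflammatory myeloid cells, was at 816 at day 3 and 7629 at day 1, 9.35-fold lower. Itgam, the CD11b integrin that neutrophils also carry, was at 856 at day 3 and 2631 at day 1, 3.07-fold lower, and Fcer1g, the signalling chain of several Fc receptors, was at 149 at day 3 and 1259 at day 1, at least 7.28-fold lower. Adgre1 and Fcer1g each had a second probe set below the floor on both arrays, so each change rests on 1 probe set. Within the list, then, Adgre1 rose while Clec4d, Itgam and Fcer1g fell.

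Genes tied to alternative activation and resident macrophages had a median of 0.00, with 6 of 13 measured members above 0 and 6 below; 5 fell at least 2-fold and 1 rose. Arg1, which competes with nitric oxide synthase for arginine, was at 2923 at day 3 and 14423 at day 1, 4.93-fold lower, and Chil3, a chitinase-like lectin, was at 1569 at day 3 and 6511 at day 1, 4.15-fold lower. Neither was at baseline at day 3: Arg1 was at 128 in control and 78 at day 6, and Chil3 at 121 in control and 49 at day 6. Folr2, a folate receptor of resident macrophages, went up, at 5829 at day 3 and 2087 at day 1, 2.79-fold higher. The falls of the list were Il4ra, Arg1, Chil3, Lyve1 and Tgfbi, of which Lyve1 and Tgfbi were named after their values were seen. Lyve1 is, like Folr2, a gene of resident macrophages, so genes of that class moved in both directions. Odc1, which makes the polyamine putrescine from ornithine, the product of arginase, was at 737 at day 3 and 3769 at day 1, 5.11-fold lower, and Arg2, the mitochondrial arginase, was at 160 at day 3 and 1549 at day 1, at least 8.95-fold lower. A second Arg2 probe set lay below the floor on both arrays.

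The list of Fc receptor and phagocyte oxidase genes, which also holds general leukocyte signalling genes, had a median of -0.42. Of 25 measured members 8 fell: Fcer1g, Vav1, Ptprc, Fgr, Lcp2, Ncf4, Rac2 and Coro1a. No gene of an Fc-binding receptor chain was among them, and the 1 rise was the Fc receptor gene Fcgrt. Fcgrt, Lcp2, Ncf4, Rac2 and Coro1a were named after their values were seen. Ptprc, the pan-leukocyte antigen CD45, was at 483 at day 3 and 1512 at day 1, 3.13-fold lower. Vav1, a haematopoietic exchange factor, was at 443 at day 3 and 1590 at day 1, 3.59-fold lower, and the Src-family kinase gene Fgr was at 519 at day 3 and 1534 at day 1, 2.96-fold lower. MHC class II molecules present antigen on macrophages, dendritic cells and B cells. The list of MHC class II and antigen presentation genes rose in 4 of 22 measured members and fell in 0. H2-Ab1 was at 5550 at day 3 and 2374 at day 1, H2-Eb1 at 6876 at day 3 and 2994 at day 1, H2-Aa at 12766 at day 3 and 5845 at day 1, and H2-DMa, which loads peptides, at 2530 at day 3 and 1199 at day 1. Their folds lay between 2.11 and 2.34, and all 4 day 3 values were close to those of control (5630, 7909, 13304 and 2456). H2-Ab1, H2-Eb1 and H2-Aa are also the 3 of 12 measured dendritic cell markers that rose. Lymphocyte markers were mostly dim: of 20 T and NK cell markers 4 were above the floor and 0 passed 2-fold, and of 14 B and plasma cell markers 1 rose (Blnk, 3.71-fold) and 1 fell (Cd79a, 2.33-fold).

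Lysosomal and lipid-handling macrophage genes rose in 4 of 42 measured members and fell in 1. Of all genes 4.41% rose and 4.84% fell. Among probe sets over 2 times the floor, between 11.9% and 15.5% passed 2-fold in either direction, so this count is not read as a shift of the list. Acp5, tartrate-resistant acid phosphatase, was at 6084 at day 3 and 2250 at day 1, 2.70-fold higher, and the scavenger receptor gene Msr1 was at 379 at day 3 and 1010 at day 1, 2.66-fold lower. Mmp12, macrophage elastase, was at 1366 at day 3 and 1228 at day 1, a log2 ratio of 0.15, while its day 6 value was 5620. The inhibitor gene Timp1 was at 7589 at day 3 and 18832 at day 1, 2.48-fold lower, and still above its 1159 in control. Lum and Ogn, small leucine-rich proteoglycans of collagen matrix, rose: Lum was at 6544 at day 3 and 1361 at day 1, 4.81-fold higher, and Ogn at 2852 at day 3 and 523 at day 1, 5.45-fold higher. Of 42 measured matrix genes 3 rose and 4 fell, which is not read as a shift either.

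Genes of clotting and of prostaglandin signalling fell more often than they rose. Serpinb2, an inhibitor of plasminogen activation, was at 117 at day 3 and 963 at day 1, at least 5.57-fold lower. Thbd, the endothelial anticoagulant receptor thrombomodulin, was at 714 at day 3 and 3412 at day 1, 4.78-fold lower, but at 3949 in control and 783 at day 6, so it was the day 1 and control arrays that were high. In this list 8 of 21 measured genes fell and 1 rose, and 4 fell when the floor was set at the 60th percentile. Ptgs2, the inducible cyclooxygenase, was at 28 at day 3 and 958 at day 1, at least 5.54-fold lower, and Ltb4r1, the leukotriene B4 receptor of leukocytes, was at 335 at day 3 and 1719 at day 1, 5.13-fold lower. Ptger3, a prostaglandin E2 receptor that lowers cAMP and restrains lipolysis in fat cells, was at 965 at day 3 and 195 at day 1, 4.95-fold higher. Of 19 measured prostaglandin and leukotriene genes 5 fell (3 when the floor was set at the 60th percentile) and 2 rose. The median log2 ratio of that list was -0.04, so the list as a whole is not read as lower. Endothelial markers had a median of -0.19, with 1 of 18 higher and 2 lower, counts too small to read as a shift.

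The endoplasmic reticulum chaperones, which fold secreted and membrane proteins and are induced by the unfolded protein response, fell in part. Among 33 measured genes the median was -0.64, and 11 fell and 0 rose, with log2 ratios from -1.80 to 0.94; the members named next are the 4 largest falls. Manf, a secreted stress-induced factor, was at 2295 at day 3 and 8014 at day 1, 3.49-fold lower. Creld2, an ER protein with thiol-disulfide activity, was at 693 at day 3 and 2358 at day 1, 3.40-fold lower, and Dnajc3, a co-chaperone, was at 1324 at day 3 and 4094 at day 1, 3.09-fold lower. The other Dnajc3 probe sets differed: 1 was at 821 at day 3 and 2147 at day 1. Another was at 981 at day 3 and 1236 at day 1, 1.26-fold lower, and 1 was below the floor on both arrays. Ppp1r15a, which reverses the stress block on translation, was at 261 at day 3 and 850 at day 1, 3.26-fold lower. Manf was at 2264 in control, Creld2 at 687 and Ppp1r15a at 261, so these day 3 values had come down to control; Dnajc3, at 2212 in control, was below it. Hspa5, the chaperone BiP, outside the rule for named genes and given for its promoter, was at 7197 at day 3 and 17264 at day 1, 2.40-fold lower.

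The promoters of Creld2 and Hspa5 are shown because both genes fell and hold the ER stress element, the site through which ATF6 and the general factor NF-Y act: CCAAT, 9 bases of any kind, then CCACG. The 250 bases before the RefSeq start are given 5′ to 3′ on the coding strand (GRCm38.p6, chr15:88819396-88819645 plus strand and chr2:34771840-34772089 plus strand), with the element in capitals. In Creld2 it lies on the opposite strand, so it reads in reverse complement, with its first printed base at -126; in Hspa5 it starts at -65.
Creld2: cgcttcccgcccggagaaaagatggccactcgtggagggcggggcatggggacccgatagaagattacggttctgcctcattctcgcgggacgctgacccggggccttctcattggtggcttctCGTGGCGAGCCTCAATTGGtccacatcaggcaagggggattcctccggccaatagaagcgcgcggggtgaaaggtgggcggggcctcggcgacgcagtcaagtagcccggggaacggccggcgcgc
Hspa5: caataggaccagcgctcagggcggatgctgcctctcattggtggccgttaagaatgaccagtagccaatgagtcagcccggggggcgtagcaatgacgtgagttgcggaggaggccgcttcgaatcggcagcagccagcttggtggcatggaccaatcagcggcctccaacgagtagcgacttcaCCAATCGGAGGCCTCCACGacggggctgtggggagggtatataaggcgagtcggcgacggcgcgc
On either strand the element was present in 0.122% (33) of the 27025 promoters. It was present in 7 of the 28 measured ER genes with a promoter in the table, and in 6 of the 10 that fell and had one (Canx, Creld2, Dnajc3, Hsp90b1, Hspa5 and Pdia6). The 33 promoters of the whole table include these 7, the element contains a CCAAT by its definition, and the ER list was written by function with results of these data known. Here too a match of letters does not show that a factor binds.

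The heat shock protein list fell in 3 of 32 measured genes and rose in 0, with a median log2 ratio of -0.29. Hsph1, an Hsp110 chaperone, was at 1146 at day 3 and 5418 at day 1, 4.73-fold lower. Hspb8, a small heat shock protein, was at 3011 at day 3 and 9608 at day 1, 3.19-fold lower. Its partner Bag3 was at 1371 at day 3 and 3745 at day 1, 2.73-fold lower. Among oxidative stress and glutathione genes 7 of 41 fell and 5 rose (3 when the floor was set at the 60th percentile). Gsr, glutathione reductase, was at 1679 at day 3 and 9205 at day 1, 5.48-fold lower. Srxn1, sulfiredoxin, was at 429 at day 3 and 3309 at day 1, 7.71-fold lower, but its dimmer probe set was at 734 at day 3 and 539 at day 1. Gsta3, a glutathione S-transferase, was at 3040 at day 3 and 308 at day 1, 9.87-fold higher, and Gstz1, which also acts in tyrosine breakdown, was at 23753 at day 3 and 6368 at day 1, 3.73-fold higher; in control these were at 2944 and 26755. Nucleolar proteins of ribosome assembly fell too: Gnl3 was 2.44-fold, Nop56 2.35-fold and Nop58 2.20-fold lower, and of 36 translation and ribosome biogenesis genes 4 fell and 0 rose. Of 35 proteasome subunits 0 passed 2-fold in either direction.

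Most fat cell markers were higher at day 3. All 11 measured fat cell markers, of 14 listed, were above the floor on both arrays, so the defining genes of the labelled tissue were present, and their summed intensity was 202515 at day 3 and 113469 at day 1, beside 223566 in control and 246415 at day 6. Thrsp alone gave 36849 of the day 3 sum and 2216 of the day 1 sum, a large part of the change in it. Of the 11, 4 rose and 0 fell, with a median log2 ratio of 0.75. The wider, overlapping list of adipocyte identity and adipokines was more mixed: of 33 measured genes 5 rose and 2 fell, with a median of 0.42. The falls were Bcl6, named after its values were seen, and Cebpb, an adipogenic factor also on the immediate early list. Cebpb was at 4876 at day 3 and 15229 at day 1, 3.12-fold lower. Slc2a4, the insulin-responsive glucose transporter GLUT4, was at 4014 at day 3 and 649 at day 1, 6.18-fold higher, with a second probe set below the floor on both arrays. Pparg, the nuclear receptor that specifies fat cells, was at 3374 at day 3 and 1304 at day 1, 2.59-fold higher. Lep, the hormone leptin, was at 3805 at day 3 and 1608 at day 1, 2.37-fold higher, but at 18438 in control. Adipoq, the hormone adiponectin, was at 42582 at day 3 and 25397 at day 1, a log2 ratio of 0.75, and Lipe, hormone-sensitive lipase, at 15702 at day 3 and 8433 at day 1, a log2 ratio of 0.90; neither passed 2-fold. Slc2a4 was back at its control value of 4052, whereas leptin was not. The summed fat cell markers and the summed neutrophil markers thus moved in opposite directions between the same 2 arrays, and the part of cell composition in either was not tested.

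Genes of fatty acid synthesis held the largest rise of the comparison. Thrsp, a nuclear and cytosolic protein that promotes lipogenesis and is also on the fat cell list, was at 36849 at day 3 and 2216 at day 1, 16.6-fold higher, with 34346 in control and 40008 at day 6. Fasn, fatty acid synthase, was at 23347 at day 3 and 4962 at day 1, 4.71-fold higher. Slc25a1, which exports citrate from mitochondria as the carbon source for fatty acids, was at 19116 at day 3 and 5130 at day 1, 3.73-fold higher, and Me1, a source of NADPH, was at 16264 at day 3 and 6170 at day 1, 2.64-fold higher. Fasn was at 31644 in control, so it lay nearer to control at day 3 than at day 1, as did Thrsp. The synthesis list had a median of 0.52, with 6 of 16 measured genes higher and 1 lower.

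Lipid droplet and lipase genes rose in 2 of 14 measured members, Ces1d and Cidea. Ces1d, a triacylglycerol hydrolase of fat cells, was at 21768 at day 3 and 4730 at day 1, 4.60-fold higher, and its other probe set was at 17149 at day 3 and 3318 at day 1. Cidea, a lipid droplet protein typical of brown fat, was at 1312 at day 3 and 178 at day 1, 7.37-fold higher. Acsl4, which activates arachidonic acid, fell: it was at 871 at day 3 and 5611 at day 1, 6.44-fold lower, with its other probe set at 116 at day 3 and 2083 at day 1. Slc27a1, a fatty acid transporter of fat and muscle, was at 17402 at day 3 and 7024 at day 1, 2.48-fold higher, above its control value of 5120. Nnat, neuronatin, a small membrane protein of fat and brain, was at 516 at day 3 and 824 at day 1, a log2 ratio of -0.68, against 27843 in control, so it was low on both treated arrays.

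Branched-chain amino acid catabolism had the highest median of the 46 pathway lists, 1.44 on the log2 scale. Fat cells burn leucine, isoleucine and valine in mitochondria and use their carbon for lipid synthesis. Of 17 measured genes, all above the floor, 12 rose and 1 fell, and 16 had a ratio above 1. Bcat2, the mitochondrial aminotransferase of the first step, was at 4755 at day 3 and 728 at day 1, 6.53-fold higher. Bckdha, a subunit of the dehydrogenase of the committed step, was at 3027 at day 3 and 687 at day 1, 4.41-fold higher. Mccc1, of the leucine branch, was at 3875 at day 3 and 929 at day 1, 4.17-fold higher, and Ivd, the step before it, was at 3629 at day 3 and 1014 at day 1, 3.58-fold higher. The 1 fall was Bcat1, the cytosolic aminotransferase, which was named after its values were seen, at 198 at day 3 and 398 at day 1. Control values of Bcat2, Bckdha, Mccc1 and Ivd were 3251, 3516, 5107 and 5045, all above day 1, so Bcat2 stood above control at day 3 and the others below it.

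**Figure D3:**
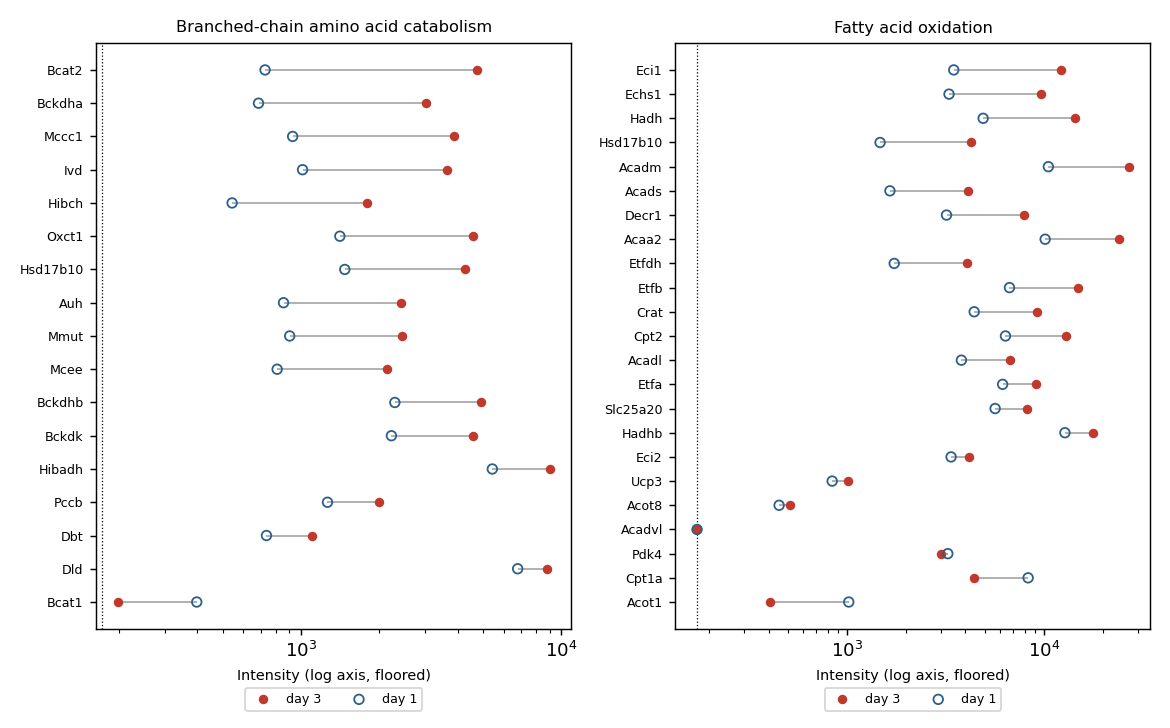
Intensities at day 3 (filled) and day 1 (open) of the measured genes of branched-chain amino acid catabolism, left, and fatty acid oxidation, right, on a logarithmic axis with the floor of 173 as a dotted line. In the left panel 12 of 17 genes rose at least 2-fold and Bcat1 fell; in the right panel 12 of 23 rose and Acot1 fell.

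Fatty acid oxidation genes had the second highest median, 1.02, with 12 of 23 measured genes higher and 1 lower. Eci1, which moves double bonds during oxidation of unsaturated acids, was at 12185 at day 3 and 3488 at day 1, 3.49-fold higher. Echs1, the enoyl-CoA hydratase, was at 9667 at day 3 and 3300 at day 1, 2.93-fold higher, and Hadh, the dehydrogenase of the next step, was at 14376 at day 3 and 4920 at day 1, 2.92-fold higher. These 3 enzymes of the β-oxidation spiral were also above their control values of 7091, 7592 and 10340. Not all genes of the list followed: of 3 named after their values were seen, Cpt1a, the carnitine shuttle enzyme of liver type, was at 4415 at day 3 and 8326 at day 1, a log2 ratio of -0.92, Pdk4, a kinase that blocks pyruvate oxidation, was at 3020 at day 3 and 3253 at day 1, and the thioesterase gene Acot1 fell 2.51-fold (407 at day 3 and 1021 at day 1). Cpt1a and Pdk4 were at 3332 and 1005 in control, so both were above control on both days. In peroxisomes, Abcd2, a fatty acyl-CoA importer, was at 3868 at day 3 and 795 at day 1, 4.87-fold higher, and Ehhadh, the bifunctional oxidation enzyme, was at 613 at day 3 and 108 at day 1, at least 3.54-fold higher; 4 of 19 peroxisomal genes rose and 1 fell, Pex5, the import receptor, which was at 1045 at day 3 and 3290 at day 1.

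The citric acid cycle and respiratory chain lists had smaller positive medians. For reading counts of ratios above 1, 3185 of all 8251 genes were above 1, 2844 below and 2222 at 1, most of the last below the floor on both arrays. Of 30 measured cycle and pyruvate dehydrogenase genes, 5 rose and 0 fell, 24 had a ratio above 1, and the median was 0.69. Sdha, the catalytic subunit of succinate dehydrogenase, was at 2708 at day 3 and 1158 at day 1, 2.34-fold higher, and Sucla2, of succinyl-CoA synthetase, was at 5731 at day 3 and 2460 at day 1, 2.33-fold higher. For complex I, 25 of 29 measured subunits had a ratio above 1 and 1 below, with a median of 0.46, but 1 passed 2-fold: Ndufv3, at 5786 at day 3 and 2320 at day 1. The ATP synthase list had a median of 0.47 and 1 rise of 13, Atp5g1, whose probe sets disagreed (750 at day 3 and 167 at day 1, but 139 at day 3 and 225 at day 1 for the dimmer one). Most respiratory chain ratios lay below the 2-fold threshold and within 3 probe set errors, so they are given by list and not gene by gene.

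The 2 cytochrome oxidase genes that rose are the isoforms of muscle and brown fat. Cox8b was at 9548 at day 3 and 816 at day 1, 11.7-fold higher, with its other probe set at 1815 at day 3 and 212 at day 1; it was at 1001 in control and 15472 at day 6, so the day 3 and day 6 arrays were the high ones. Cox7a1 was at 966 at day 3 and 318 at day 1, 3.04-fold higher, with 56 in control and 954 at day 6. Ucp1, the uncoupling protein that lets brown fat mitochondria make heat, did not follow them: it was at 1501 at day 3 and 3059 at day 1, 2.04-fold lower, near the threshold, with its other probe set at 348 at day 3 and 553 at day 1, and with -14 in control and 1190 at day 6. Of 13 measured brown and beige genes 4 rose (Cox8b, Cidea, Cox7a1 and Ebf2, a transcription factor of brown precursors, at 726 at day 3 and 349 at day 1) and Ucp1 fell, while 5 of the 13 were below the floor on both arrays. Slc25a10, the mitochondrial dicarboxylate carrier, was at 16135 at day 3 and 2658 at day 1, 6.07-fold higher, and at 7099 in control.

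Glucose uptake genes divided by isoform. While Slc2a4 rose, Slc2a1, the ubiquitous transporter GLUT1, was at 118 at day 3 and 719 at day 1, at least 4.16-fold lower. Slc16a1, a monocarboxylate transporter for lactate, was at 175 at day 3 and 1069 at day 1, 6.11-fold lower. Pfkm, the muscle isoform of phosphofructokinase, was at 803 at day 3 and 260 at day 1, 3.09-fold higher. Of 26 measured genes of glucose transport and glycolysis, these included, 4 rose and 4 fell, with a median of 0.00. The rises were Slc2a4, Pfkm, Gys1 and Gpd1, and the falls Slc16a1, Slc2a1, Slc2a3 and Pgm2, so several are transporters. Gys1, Slc2a3 and Pgm2 were named after their values were seen. Among insulin signalling genes, Irs3, an insulin receptor substrate found in rodent fat, was at 1023 at day 3 and 204 at day 1, 5.01-fold higher, and Irs2 was at 83 at day 3 and 525 at day 1, at least 3.03-fold lower; 4 of 26 rose and 1 fell. Prkaca, the catalytic subunit of protein kinase A, was at 4143 at day 3 and 1621 at day 1, 2.56-fold higher, and of 27 adrenergic and cAMP genes 3 rose and 1 fell.

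The remaining genes among the 15 largest rises have varied roles. Reep6, a protein that shapes endoplasmic reticulum membranes, was at 5458 at day 3 and 525 at day 1, 10.4-fold higher. Igfals, the subunit that stabilises circulating IGF complexes, was at 1569 at day 3 and -11 at day 1, at least 9.07-fold higher, with a second probe set below the floor on both arrays. Selenbp1, a methanethiol oxidase, was at 2863 at day 3 and 375 at day 1, 7.63-fold higher, and Tst, a mitochondrial sulfurtransferase, was at 4245 at day 3 and 635 at day 1, 6.68-fold higher. Retsat, which saturates retinol in fat cells, was at 6770 at day 3 and 982 at day 1, 6.89-fold higher. The linker histone gene H1f10 was at 1707 at day 3 and 196 at day 1, 8.71-fold higher. A probe set named for Tyms-ps, a pseudogene of thymidylate synthase, was at 3410 at day 3 and 243 at day 1, 14.0-fold higher, but a second one was below the floor on both arrays, and it may share sequence with the parent gene.

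Genes of mitosis rose from dim levels. Of 43 measured genes, 34 above the floor on at least 1 array, 13 rose and 1 fell, with a median of 0.46. This count depended on the floor: 21 rose when it was set at the 25th percentile, 2 at the 60th and 8 when the floor was added to each value in place of raising low ones. Stmn1, stathmin, which destabilises microtubules, was at 2738 at day 3 and 459 at day 1, 5.97-fold higher, with a second probe set below the floor on both arrays. Cdk1, the mitotic cyclin-dependent kinase, was at 698 at day 3 and 68 at day 1, at least 4.03-fold higher. Cdc20, an activator of the anaphase-promoting complex, was at 1030 at day 3 and 283 at day 1, 3.64-fold higher, and Birc5, survivin, was at 601 at day 3 and 124 at day 1, at least 3.47-fold higher. All 4 were also brighter at day 3 than in control (559, 4, 340 and 150) and at day 6 (1075, 279, 643 and 330). The fall was Tubb5, a β-tubulin named after its values were seen, at 7828 at day 3 and 16949 at day 1. In DNA replication 4 of 42 genes rose and 0 fell: Tk1, thymidine kinase, was at 745 at day 3 and 133 at day 1, at least 4.31-fold higher, with its dimmer probe set at 285 at day 3 and 144 at day 1, and Top2a, topoisomerase II, was below the floor on both arrays.

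Promoters of Cdk1 and of Ccnb2, the cyclin B2 partner of CDK1 (1768 at day 3 and 523 at day 1, 3.38-fold higher, given for its promoter), are shown because both genes rose. Both promoters also hold letter matches to elements known from mitotic genes: the CCAAT box and the cell cycle homology region (CHR), TTTGAA. The 250 bases before the RefSeq start are given 5′ to 3′ on the coding strand (GRCm38.p6, chr10:69352913-69353162 minus strand and chr9:70421555-70421804 minus strand), with matches in capitals; in Cdk1 the CCAAT boxes lie on the opposite strand and read ATTGG. In Cdk1 they begin at -208, -80 and -48 and the CHR matches at -71 and -15; in Ccnb2 the CCAAT boxes begin at -87, -54 and -21 and the CHR match at -167.
Cdk1: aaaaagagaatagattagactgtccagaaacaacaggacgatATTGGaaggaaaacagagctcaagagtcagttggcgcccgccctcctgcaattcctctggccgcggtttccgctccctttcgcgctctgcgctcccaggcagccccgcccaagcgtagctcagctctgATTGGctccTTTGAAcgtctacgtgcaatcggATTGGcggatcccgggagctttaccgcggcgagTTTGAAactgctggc
Ccnb2: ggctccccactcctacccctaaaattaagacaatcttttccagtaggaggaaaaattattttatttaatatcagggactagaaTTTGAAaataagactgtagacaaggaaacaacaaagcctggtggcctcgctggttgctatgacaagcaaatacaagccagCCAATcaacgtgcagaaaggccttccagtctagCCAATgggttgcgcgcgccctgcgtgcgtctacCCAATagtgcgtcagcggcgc
On either strand, CCAAT was present in 34.5% and TTTGAA in 16.3% of the 27025 promoters. Of the 36 measured mitosis genes with a promoter in the table, 30 held CCAAT and 15 held TTTGAA; of the 11 past 2-fold that had one, 7 held CCAAT and 6 held TTTGAA. The first of these is not particular to mitosis genes: among ER genes 20 of 28 held CCAAT, and 9 of 10 of those past 2-fold. In Ccnb2 the only TTTGAA lies farther from the start than the CCAAT boxes. A match of letters describes the sequence and does not show that the site works as a CHR or CCAAT box.

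**Figure D4:**
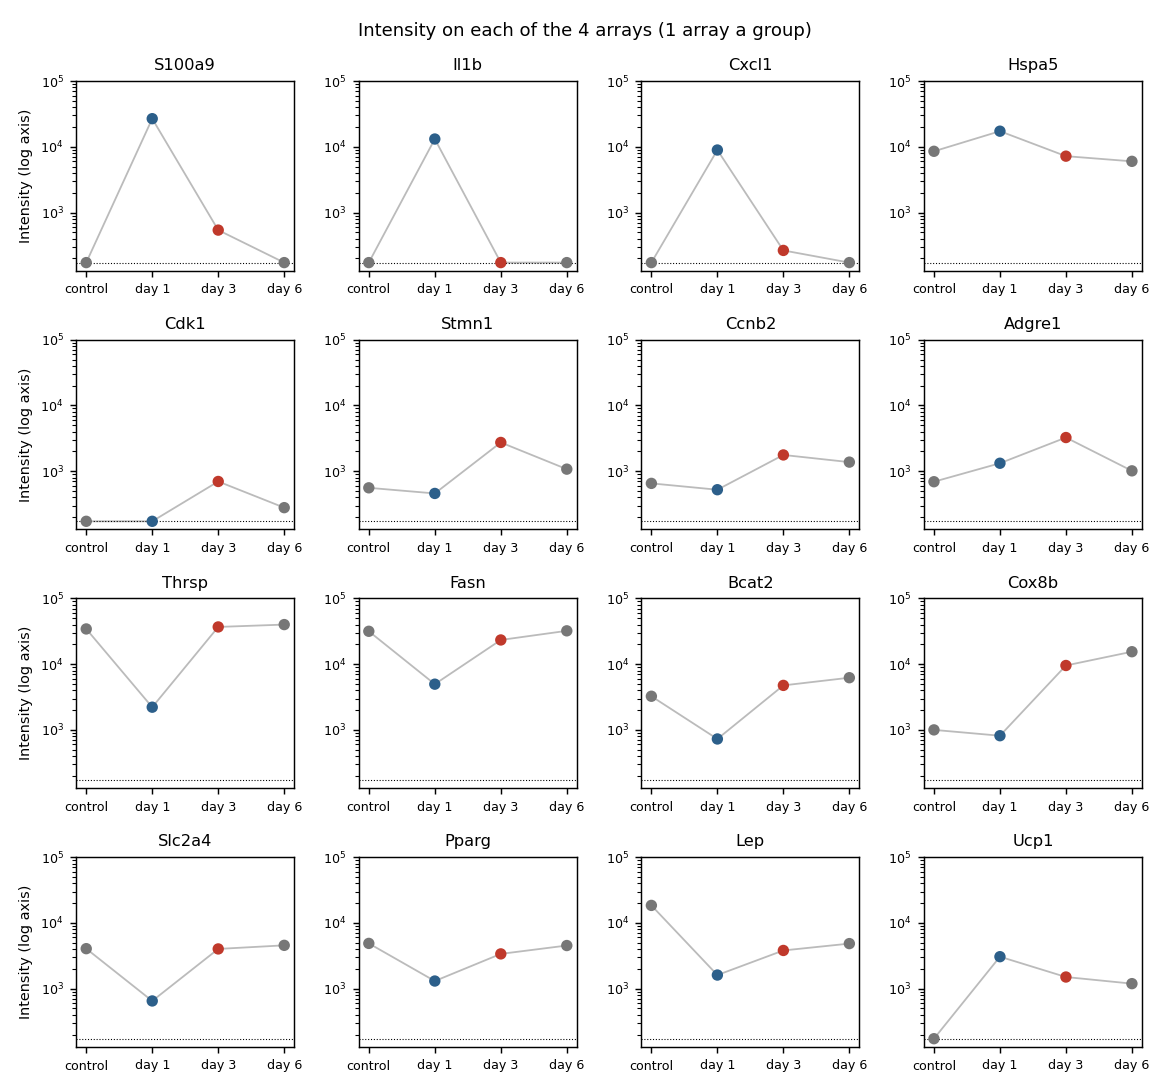
Intensity, on a logarithmic axis with the floor of 173 as a dotted line, of 16 genes on each of the 4 arrays in the order control, day 1, day 3 and day 6; lines join single arrays and have no error. S100a9, Il1b and Cxcl1 peak at day 1, Cdk1, Stmn1, Ccnb2 and Adgre1 at day 3, Thrsp, Fasn, Bcat2 and Slc2a4 are low at day 1, and Cox8b is high at day 3 and day 6.

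The plot of 16 genes over the 4 arrays shows which side of the ratio moved. Arrays are shared between these comparisons, so the values are placed beside each other without a test. For S100a9, Il1b, Cxcl1 and Hspa5, the day 1 array was the highest; for Thrsp, Fasn and Slc2a4, the day 1 array was low. For the 3 mitosis genes and Adgre1 the day 3 array was the highest of the 4. Cox8b was low in control and at day 1 and high at day 3 and day 6.

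**Figure D5:**
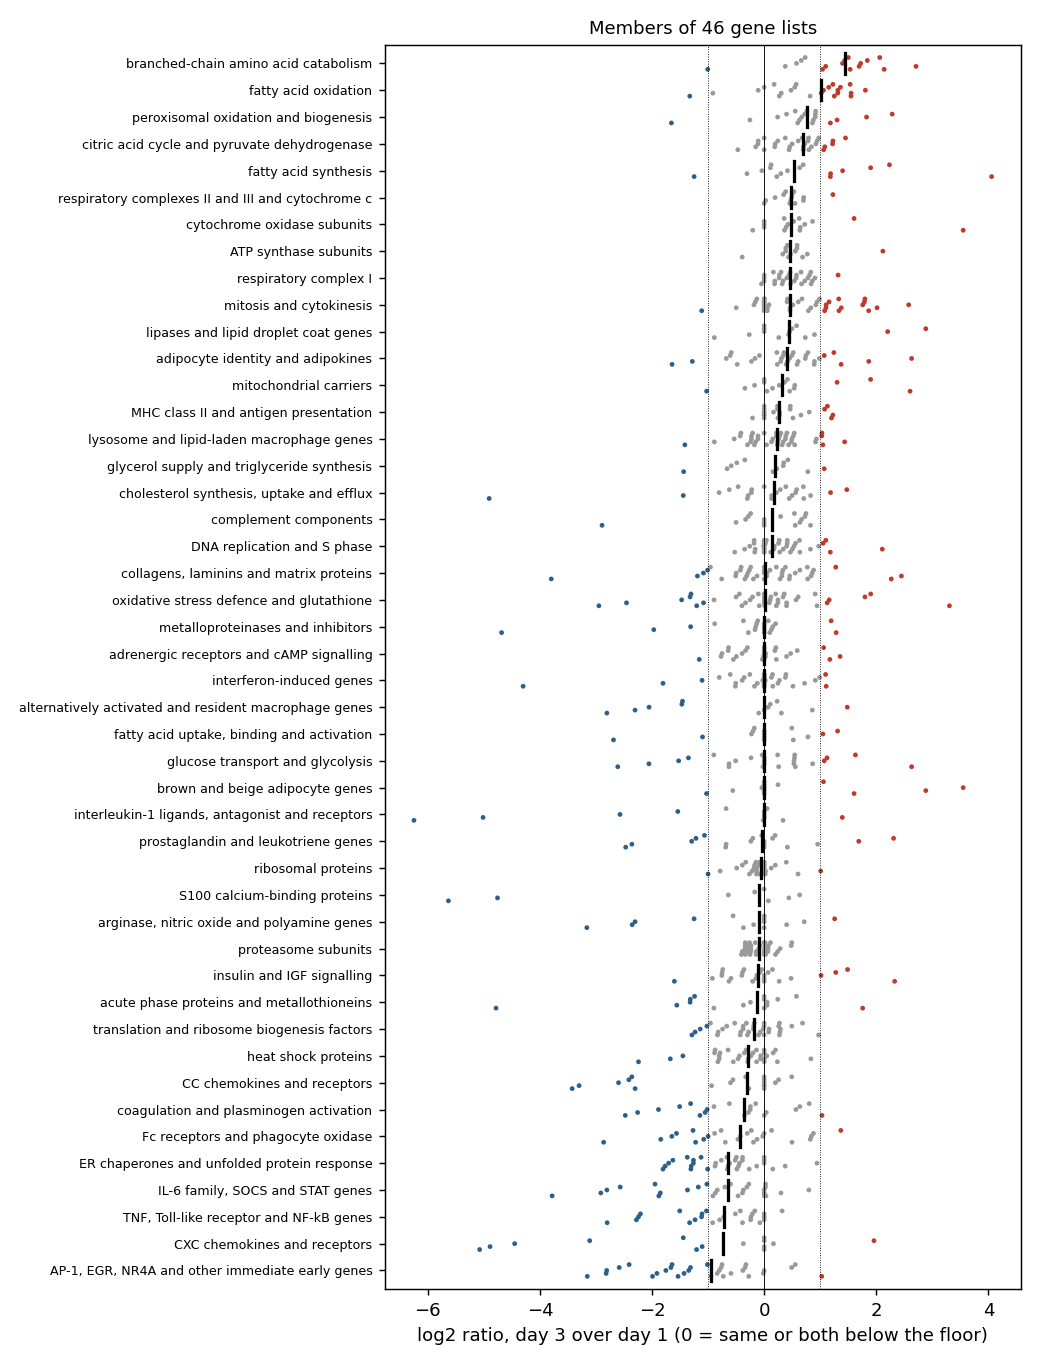
Log2 ratio of day 3 over day 1 for each measured member of the 46 pathway lists, with genes below the floor on both arrays at 0; bars are list medians, the dotted lines mark 2-fold, and colours mark genes at least 2-fold higher (red) or lower (blue). Medians run from 1.44 for branched-chain amino acid catabolism to -0.95 for immediate early genes.

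The plot of all 46 lists shows the range of these medians, against 0.00 for all genes. Lists at the upper end are those of mitochondrial and lipogenic metabolism, and lists at the lower end those of immediate early genes, CXC chemokines, NF-kB and interleukin-6 signalling and ER chaperones. Markers of epithelium and of epididymis, a tissue that lies against this fat pad, were dim on both arrays (summed intensity 1288 at day 3 and 681 at day 1). Their sum was 13274 in control and 11257 at day 6, so both arrays of the ratio were low for it. Of 9 measured, Gpx5 rose, at 622 at day 3 and 179 at day 1. Gpx5 was at 6708 in control but at 302 at day 6, so it gave little of the day 6 sum. Mesothelial markers summed to 10986 at day 3 and 20739 at day 1, where 1 of 10 passed 2-fold, Slpi, 2.56-fold lower. Slpi alone gave 6112 of the day 3 sum and 15673 of the day 1 sum, and the median log2 ratio of the list was -0.04. Of 16 skeletal muscle markers 2 rose and 1, Acta1, fell 11.2-fold (212 at day 3 and 2381 at day 1, with 1491 in control). Hdc, the histamine-forming enzyme of mast cells that neutrophils and macrophages can also make, fell 11.9-fold (322 at day 3 and 3839 at day 1) and was the 1 mast cell or eosinophil marker of 16 to pass 2-fold.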

How the data were processed

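Each array was deposited as whole-number intensities on a linear scale, of which 12.35% at day 3 and 12.15% at day 1 are at or below 0. How the authors computed and normalized the intensity values is not stated in the sources used here. The 75th percentile was 1199 on both arrays. The day 3 and day 1 columns were raised to the floor (173), and the log2 ratio of day 3 over day 1 was taken from the deposited intensities with Python 3.11.15, numpy 2.4.6 and pandas 2.3.3; code was tested on simulated data. The 66 control probe sets were left out. Symbols came from the platform annotation, in which 396 probe sets have several symbols and 1193 none; a gene with several probe sets (2073 genes) is given by the one with the highest mean. Entrez identifiers of 10817 probe sets matched the RefSeq gene table of GRCm38.p6. Promoters are RefSeq sequences of that build, the first listed window of each gene; no coordinates belong to the array values.

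The 179 named genes are the 15 that rose most and the 15 that fell most, if the brighter array reached 2 times the floor, the largest changes past 2-fold of each list (up to 4), and 25 genes given whatever their values. Of the 54 of these past 2-fold that had other probe sets, 27 had another past 2-fold and 3 had one that went the opposite way (Atp5g1, Lcn2 and Srxn1). Those with another probe set below the floor on both arrays include Adgre1, Arg2, Fcer1g, H2-DMa, Il4ra, Nop56, Ptger3 and Timp1. Over the 343 gene pairs behind the error, 41 first probe sets passed 2-fold, and 5 of their seconds had the opposite sign. List counts run over all measured members, those below the floor included. The members, the 46 pathway lists and the 15 cell type lists were chosen with earlier results of these data known. Alternatives were other floors, the floor added to each value, other scalings, the median of a gene's probe sets, and leaving out probe sets that share sequence or lie at the floor on either array. The number of arrays limits the precision.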

Additional observations from a re-analysis of the deposited data

How the results depend on the processing

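No paired analysis was possible because each group has 1 array. With the floor at the 25th percentile (58), 840 probe sets were higher and 871 lower at day 3, against 452 and 513 at the floor used; with it at the 60th percentile (537), 256 were higher and 275 lower. At the 25th percentile 21 mitosis genes rose, against 13. At the 60th percentile 2 mitosis and 3 oxidative stress genes rose, and 4 CXC, 5 interleukin-6 pathway, 3 prostaglandin and 4 coagulation genes fell. Adding the floor to each value left 8 mitosis rises. A higher floor leaves fewer genes able to pass. Other scalings moved the probe set counts little: 452 higher and 509 lower with a trimmed mean, 453 and 507 with quantiles. No result changed direction in these alternatives. Of 179 named genes, 45 no longer passed 2-fold at the 60th percentile, 25 with the floor added, 15 with the median of a gene's probe sets and 1 with the trimmed mean. Of probe sets averaging under 2 times the floor 2.45% passed 2-fold, where the floor limits the ratio, 15.5% at 2 to 4 times the floor, and between 11.9% and 14.1% in the brighter classes.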

Other observations

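Genes in this paragraph and the next were chosen after their values were seen, stand on no list used above, and have no test. The 5 genes that follow relate to hyaluronan, a matrix polysaccharide, and were picked because they fell; other genes of that pathway were not counted. Ugdh, which makes UDP-glucuronate, was at 5074 at day 3 and 24888 at day 1, 4.91-fold lower, with 4762 in control. Gfpt2, of the hexosamine pathway, was at 966 at day 3 and 3345 at day 1, 3.46-fold lower, and Uap1, which makes UDP-N-acetylglucosamine, was at 105 at day 3 and 639 at day 1, at least 3.69-fold lower. Has1, a hyaluronan synthase, was at 28 at day 3 and 655 at day 1, at least 3.79-fold lower, and Cd44, a hyaluronan receptor, was at 367 at day 3 and 1635 at day 1, 4.46-fold lower. Vcan and Tnfaip6, both hyaluronan-binding and described with other lists, fell as well.

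The 4 genes that follow were picked because they rose, and other enzymes of their classes were not counted. Adh1, an alcohol dehydrogenase that also acts on retinol, was at 6319 at day 3 and 1236 at day 1, 5.11-fold higher. Aldh1a7, an aldehyde dehydrogenase, was at 7916 at day 3 and 1585 at day 1, 4.99-fold higher. Aox1, aldehyde oxidase, was at 1529 at day 3 and 359 at day 1, 4.26-fold higher, and Sult1a1, a sulfotransferase, was at 1545 at day 3 and 318 at day 1, 4.86-fold higher. Control values of Adh1, Aldh1a7, Aox1 and Sult1a1 were 5824, 6110, 2333 and 2120, all above day 1.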
